A study of Mus musculus with 8 samples.

Results

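The p53 pathway genes described here were 10 genes chosen by name: Trp53, Mdm2, Mdm4, Ccng1, Bax, Bbc3, Pmaip1, Phlda3, Aen and Sesn2. All 10 were present among the 32285 genes of each matrix. Their raw transcript counts were followed in bone marrow cells sorted as Lineage- c-Kit+, a gate that holds haematopoietic stem cells and progenitors (HSPC), of 8 wild-type mice, with 1 library per mouse. There was 1 male and 1 female at each age: young (14 weeks), middle-aged (50 weeks), old (78 weeks for the male, 79 weeks for the female) and very old (95 weeks). No mouse carried a transgene or received a treatment according to the labels. The labels do not give the strain. The 2 very old libraries carry another library number series than the other 6, so that age of 95 weeks and library series cannot be told apart.

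p53, encoded by Trp53, is a transcription factor that is stabilised after DNA damage and other stresses and then drives genes of cell cycle arrest, repair and apoptosis. In unstressed cells it is kept low by the ubiquitin ligase Mdm2 and its partner Mdm4, and Mdm2 is itself a p53 target. In haematopoietic stem cells (HSC), p53 is known for its part in quiescence and in the choice between survival and death after damage. Since p53 is controlled largely at the level of its protein, its transcript says little about its activity, and the target genes are usually read instead.

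The half-site to which p53 binds, a motif of 10 bases, was searched on both strands in windows of 300 bases from 250 bases upstream to 50 bases downstream of each start (RefSeq, GRCm38.p6). These sequences are shown since the members are grouped by their relation to p53. Pmaip1 was not searched. Of the other 9 genes, 5 held a half-site in at least 1 window, as did 9.55% of all 27025 genes. Counted by window, 6 of 13 windows of these genes and 8.36% of all 32851 windows held one. A full site of 2 half-sites, up to 13 bases apart, was in no window of these 9 genes and in 0.0731% of all windows. Each stretch below is given 5′ to 3′ on the strand of the gene, with the half-site in capitals.
Trp53, chr11:69580259-69580318, plus strand: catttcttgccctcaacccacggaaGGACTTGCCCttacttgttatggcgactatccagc
Mdm2, chr10:117710910-117710969, minus strand: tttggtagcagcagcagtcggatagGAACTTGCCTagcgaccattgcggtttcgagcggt
Ccng1, chr11:40755437-40755496, minus strand: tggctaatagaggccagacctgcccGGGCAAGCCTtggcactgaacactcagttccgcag
Bax, chr7:45467065-45467124, minus strand: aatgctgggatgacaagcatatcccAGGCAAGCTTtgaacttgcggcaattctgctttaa
Aen, chr7:78895912-78895971, plus strand: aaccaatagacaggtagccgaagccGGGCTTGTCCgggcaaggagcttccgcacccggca
The windows of Mdm4, Phlda3, Bbc3 and Sesn2 held none. A match is a description of the letters and not a binding site, and p53 sites outside these windows were not looked at.

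The 8 libraries held 59136 cells with 200 or more genes and between 83062003 and 150135029 unique molecular identifiers (UMIs, which count captured RNA molecules), with a median of 8505 to 14951 UMIs per cell. Of the 58672 distinct cell barcodes, 462 occurred in 2 or more libraries. The female libraries had 1160 to 1721 Xist counts per 1000000 UMIs (CPM) and the male libraries at most 0.235, as their labels state. Cells were grouped into 11 classes that held 47012 cells, from 35 cells of the smallest class in a mouse upwards. Of these, 7 were named from marker genes: HSC-like, erythroid-like, megakaryocyte progenitor-like, basophil or mast progenitor-like, granulocyte progenitor-like, monocyte progenitor-like and dendritic progenitor-like cells. The HSC marker Procr stood at 134 CPM in HSC-like cells and at 17.5 or less in every other class. Of the other listed HSC markers, Vwf and Ctnnal1 were lower in HSC-like (49.1 and 12.4) than in megakaryocyte progenitor-like cells (78.1 and 15.8). Slamf1 was nearly as high in the Pdzph1/Dnah12 cluster (19.3) as in HSC-like cells (20.1). All listed HSC markers but Vwf and Ctnnal1 were highest in HSC-like cells. The T cell marker Cd3e was at 0.03 or less in all classes, and the plasmacytoid dendritic marker Siglech reached only 1.65 in dendritic progenitor-like cells. Basophil or mast progenitor-like cells had Cpa3 at 1077 and Mcpt8 at 405 CPM. They also had the highest levels of the eosinophil genes Prg2 (1319), Prg3 (137) and Epx (47.9). The other 4 classes kept the names of 2 leading genes. The Dntt/Wfdc17 cluster and the Dntt/Pimreg cluster expressed Cd34 and Flt3. The Dntt/Pimreg cluster had more Mpo than the Dntt/Wfdc17 cluster (1752 against 485 CPM), and the cell division genes Cep55, Nusap1 and Kif23 among its leading genes. The Pdzph1/Dnah12 cluster and the Zg16/Trib2 cluster expressed the erythroid factor Klf1 (156 and 230 CPM, against 296 in erythroid-like cells). Some other erythroid genes were far lower in the Pdzph1/Dnah12 cluster than in erythroid-like cells. Examples were Hba-a1 (4.30 against 124), Rhag (9.64 against 118) and Ermap (38.8 against 257). Aqp1 was closer (189 against 243), and Car1 was at 1180 against 3204. The Zg16/Trib2 cluster also had little Hba-a1 (2.21) and Rhag (28.7), whereas its Aqp1 (245) and Car1 (3405) reached erythroid-like levels. The one listed marker among the leading genes of the Pdzph1/Dnah12 cluster was the HSC gene Slamf1. The members were left out of the genes used to form the classes.

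Over whole libraries the members spanned a wide range of raw UMIs. Trp53 had 15174 to 28465 raw UMIs per library and Bax 10030 to 21563, whereas Pmaip1 had 60 to 114 and Sesn2 258 to 597. As CPM of the library, Trp53 varied little, from 179 in the old male to 203 in the very old male. Mdm2 lay at 20.7 and 20.9 in the very old mice and between 24.9 and 27.0 in the other 6. The 2 very old libraries thus did not overlap the rest, a split that was not counted over all genes. Aen had its lowest value, 39.9, in the very old and its highest, 60.4, in the middle-aged female. Bbc3 ranged from 6.84 to 11, Phlda3 from 4.69 to 8.53 and Pmaip1 from 0.469 to 1.16. These whole-library values mix lineages in different proportions and were not tested.

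**Figure D1:**
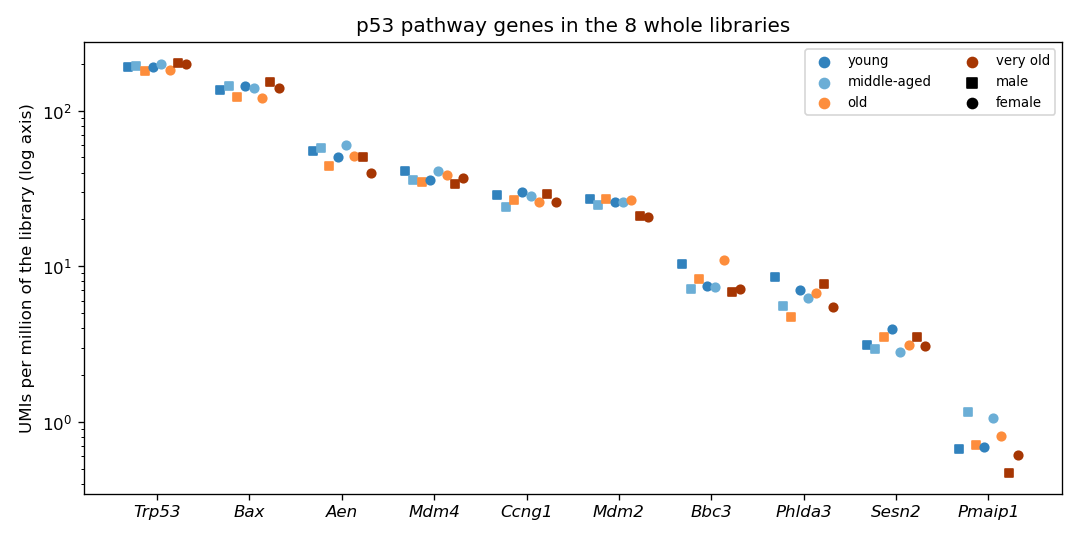
CPM of the library (y axis, log scale) for the 10 p53 pathway genes (x axis) in each of the 8 mice, with age as colour and sex as marker shape. Trp53 sits between 179 and 203 in all mice, and the 2 very old mice have the lowest Mdm2 values, 20.7 and 20.9.

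Several members were too sparse to judge in some classes. A gene was judged in a class where it passed the filter on low counts (filterByExpr of edgeR) and its summed raw UMIs had a median of at least 20 over the 8 mice. This held for 89 of the 110 pairs of member and class. Trp53, Mdm4 and Bax were judged in all 11 classes, Mdm2, Ccng1, Bbc3 and Aen in 10, Phlda3 in 8 and Sesn2 in 7. Pmaip1 was judged in monocyte progenitor-like cells alone. In HSC-like cells Pmaip1 had 9 raw UMIs over all 8 mice and 0 to 3 per mouse, and Phlda3 had 7 to 24 per mouse, so neither could be followed with age there. Sesn2 passed narrowly in HSC-like cells with a median of 20.5 raw UMIs. Dendritic progenitor-like cells, the smallest class, allowed only Trp53, Mdm4 and Bax to be judged.

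**Figure D2:**
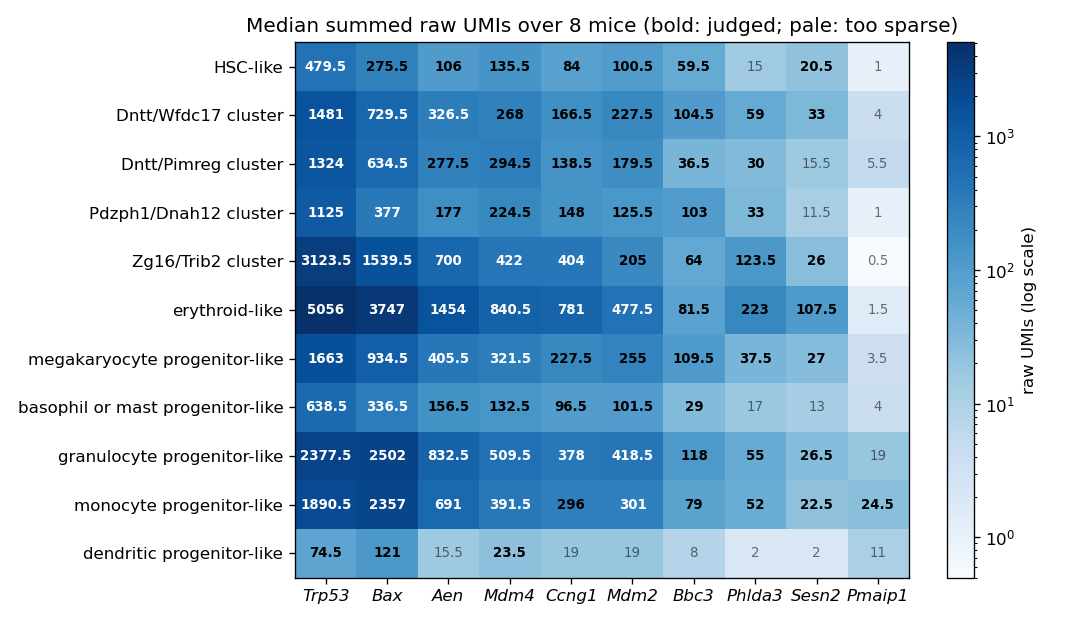
Median over 8 mice of the summed raw UMIs (number and blue shade, log scale) of each p53 pathway gene (columns) in each cell class (rows). Bold values were judged and pale values were too sparse, among them Pmaip1 with a median of 1 in HSC-like cells.

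The first comparison asked whether the members differed between lineages of the same mice. Summed UMIs per mouse and class were compared between each class and the mean of the other classes, with the mouse as a block (edgeR quasi-likelihood test, adjusted over all 12720 genes tested in a class). Levels are CPM after TMM scaling over all 88 sums, as mean ± SD over 8 mice. Of the 89 judged pairs, 31 were higher and 36 lower than the other classes at an adjusted p under 0.05. The 31 include Pmaip1 in monocyte progenitor-like cells, which was judged only because it was high there. Over all genes 35.9% of pairs were higher and 33.6% lower, so the members differed between classes about as often as other genes. Of the 67 calls, 51 kept their direction and their call in every alternative tried.

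Trp53 (ENSMUSG00000059552, chr11:69580359-69591873, GRCm38, plus strand) was highest in 3 classes. Its level was 319 ± 15.2 in the Zg16/Trib2 cluster, 280 ± 20.7 in the Pdzph1/Dnah12 cluster and 264 ± 11.5 in erythroid-like cells. All 3 were above the other classes, by 0.86, 0.65 and 0.56 on the log2 scale (SE 0.03 in each). HSC-like cells had 134 ± 11.2 and were lower by -0.52 ± 0.03 (SE, adjusted p from edgeR 2.0e-24). The lowest mean was that of dendritic progenitor-like cells, 123 ± 23.3 (-0.66), below HSC-like cells in 6 of 8 mice. Granulocyte progenitor-like cells had 142 ± 7.90 (-0.43). The lowest of the 8 mice in the Zg16/Trib2 cluster, at 291, stood above the highest in HSC-like cells, at 148. Neighbours in the order were often not separated: Trp53 was higher in the Dntt/Pimreg than in the Dntt/Wfdc17 cluster in 4 of 8 mice.

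The p53 inhibitors followed other patterns. Mdm2 (ENSMUSG00000020184, chr10:117688875-117710758, minus strand) was the most even member. Its judged means ran from 23.2 ± 2.20 in the Zg16/Trib2 cluster to 31.6 ± 3.20 in the Pdzph1/Dnah12 cluster, a ratio of 1.36. Among its 10 judged classes it was called higher in the Pdzph1/Dnah12 cluster and lower in 3, the Zg16/Trib2 cluster, erythroid-like cells and the Dntt/Pimreg cluster. Its mean was 35.7 ± 6.28 in dendritic progenitor-like cells, which were not judged (median of 19 raw UMIs). The Zg16/Trib2 cluster thus combined the highest Trp53 level with the lowest judged Mdm2 mean, although Mdm2 was higher in its neighbour, erythroid-like cells, in only 5 of 8 mice. Mdm4 (ENSMUSG00000054387, chr1:132959484-133030561, minus strand), which inhibits p53 without ligase activity of its own, was highest in the Pdzph1/Dnah12 cluster (52.6 ± 7.41) and the Zg16/Trib2 cluster (46.4 ± 4.17). In HSC-like cells Mdm4 was at 33.6 ± 3.56 and called lower by -0.18, but with total UMIs as the only scaling the difference was 0.07. Scaling moved the HSC-like class as a whole by 0.25 on the log2 scale against the others.

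Ccng1 (ENSMUSG00000020326, chr11:40748552-40755311, minus strand) encodes cyclin G1, a p53 target that acts on Mdm2. It was highest in erythroid-like cells (40.8 ± 1.82), the Zg16/Trib2 cluster (39.6 ± 3.61) and the Pdzph1/Dnah12 cluster (35.7 ± 4.09). Each of these was above the other classes by 0.49 or more on the log2 scale. The Dntt/Pimreg cluster had the lowest level, at 18.4 ± 1.40. In HSC-like cells Ccng1 was called lower by -0.24, and this turned to 0.01 with total UMIs alone.

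The apoptosis genes Bax and Bbc3 differed from each other across lineages. Bax (ENSMUSG00000003873, chr7:45461697-45466898, minus strand) encodes a pore-forming protein of the mitochondrial outer membrane. The annotation places the gene model Gm45808 over it on the same strand, so some of its reads may have been shared or dropped. Bax was highest in erythroid-like (200 ± 18.1) and monocyte progenitor-like cells (190 ± 26.4) and lowest in HSC-like cells (69.0 ± 7.08), which were lower than the other classes by -0.89 ± 0.05 (SE, adjusted p from edgeR 6.4e-27). HSC-like cells had less Bax than the Dntt/Pimreg cluster, their neighbour in this order, in 8 of 8 mice.

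Bbc3 (ENSMUSG00000002083, chr7:16308393-16318205, plus strand) encodes PUMA, a BH3-only protein that sets off apoptosis. It was highest in the Pdzph1/Dnah12 cluster at 26.5 ± 5.36 and next in HSC-like cells at 15.9 ± 3.61, and the first exceeded the second in 8 of 8 mice. Erythroid-like cells had 4.39 ± 0.795 and the Dntt/Pimreg cluster 4.83 ± 1.09. The differences from the other classes were 1.63 ± 0.09 (SE) for the Pdzph1/Dnah12 cluster, 0.80 ± 0.11 for HSC-like and -1.17 ± 0.09 for erythroid-like cells. Thus HSC-like cells combined the lowest Bax level with the second highest Bbc3 level, and erythroid-like cells the highest Bax mean with the lowest Bbc3 mean. Erythroid-like cells exceeded monocyte progenitor-like cells in Bax in 4 of 8 mice. Between the highest and the lowest class, Bbc3 differed by 6.04 times and Bax by 2.90 times.

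Pmaip1 (ENSMUSG00000024521) encodes NOXA, another BH3-only protein. Over all mice it had 194 raw UMIs in 4893 monocyte progenitor-like cells, 162 in 8256 granulocyte progenitor-like cells and 80 in 570 dendritic progenitor-like cells. By contrast, 7766 erythroid-like cells gave 20. Its level was 2.0 ± 0.548 CPM in monocyte progenitor-like cells, the one class in which it was judged. In dendritic progenitor-like cells it was at 4.98 to 20.8 CPM, above monocyte progenitor-like cells in 8 of 8 mice, on a median of 11 raw UMIs per mouse. Since a class was judged only where Pmaip1 had enough UMIs, its being higher there is a description and not a test.

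The remaining members are p53 targets with separate roles. Phlda3 (ENSMUSG00000041801, chr1:135766119-135769136, plus strand), a repressor of Akt, was highest in the Zg16/Trib2 cluster at 13.6 ± 2.82 and in erythroid-like cells at 10.9 ± 1.24. Its lowest judged level was 3.53 ± 0.911 in granulocyte progenitor-like cells. Aen (ENSMUSG00000030609, chr7:78895854-78911209, plus strand), a nuclease that takes part in apoptosis, had the same 2 classes on top, at 74.6 ± 6.36 and 68.6 ± 7.84. HSC-like cells had the lowest judged Aen level at 28.2 ± 7.10, below the other classes by -0.73 ± 0.08 (SE). They lay below basophil or mast progenitor-like cells, the next judged class, in 8 of 8 mice.

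Sesn2 (ENSMUSG00000028893, chr4:132492032-132510501, minus strand) encodes sestrin 2, which restrains mTORC1 under stress. The gene model Gm12981 overlaps it on the same strand. Sesn2 was highest in erythroid-like cells (5.51 ± 0.745) and HSC-like cells (5.15 ± 1.21), which were not separated (higher in erythroid-like cells in 5 of 8 mice). Granulocyte and monocyte progenitor-like cells had the lowest levels, 1.83 ± 0.504 and 1.86 ± 0.535. HSC-like cells therefore ranked low for Bax and Aen and high for Bbc3 and Sesn2.

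**Figure D3:**
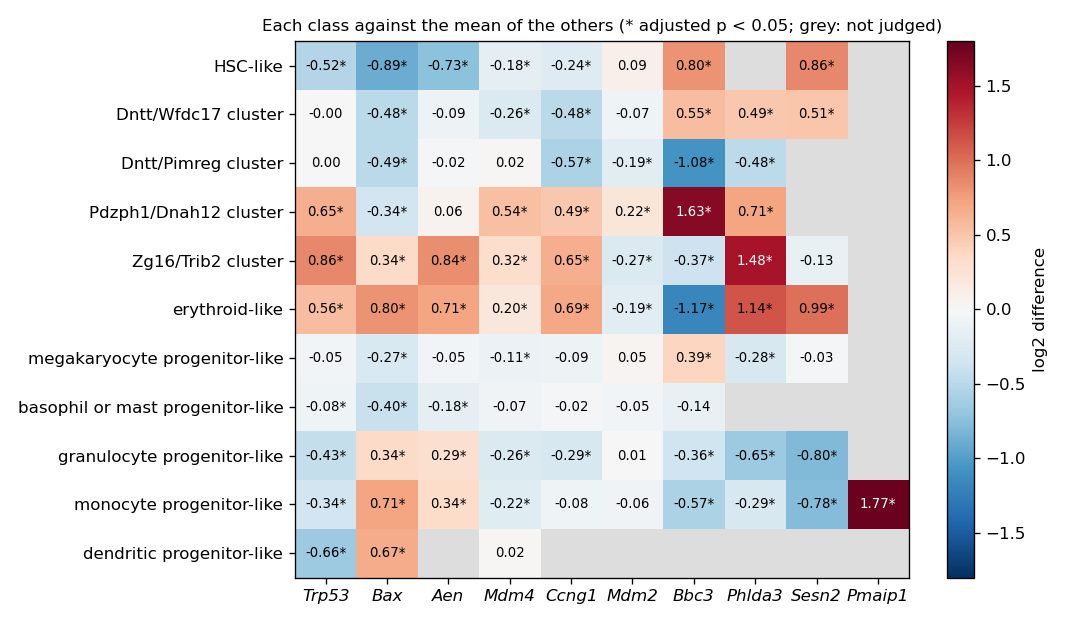
Difference of each cell class (rows) from the mean of the other classes, on the log2 scale (colour and number), for each p53 pathway gene (columns). Stars mark an adjusted p under 0.05 and grey marks pairs too sparse to judge, and the Pdzph1/Dnah12 cluster has the largest Bbc3 difference at 1.63.

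Across the 88 sums, the genes whose log2 level was most like that of each member were named as a description, by Pearson r among 12719 genes. The sums share mice and classes and are not independent. Trp53 was most like Bclaf1 (r = 0.93), Ugcg and Gclm. Bax was most like Polr1d (r = 0.94), Ube2d3 and Timm10b, and Aen most like Gnl3 (r = 0.91), Gemin5 and Polr1b. Ccng1 was most like Car1 (r = 0.88), Stx2 and Sun1, and Phlda3 most like Mtrr (r = 0.81), Steap3 and 4833417C18Rik. The closest genes were less alike for Bbc3 (4833420G17Rik, r = 0.77, then 5031425E22Rik and N4bp2), Mdm4 (Tspo2, r = 0.74, then Lpin2 and Stx2), Sesn2 (Zdhhc24, r = 0.70, then Hook2 and Purg) and Mdm2 (Arid4a, r = 0.69, then Arhgap45 and Sdccag8). No member was among the 3 closest genes of another member. Among the members, r with Trp53 was 0.68 for Phlda3, 0.66 for Ccng1, 0.64 for Aen, 0.62 for Mdm4, 0.21 for Sesn2, 0.09 for Bax, -0.02 for Bbc3, -0.38 for Mdm2 and -0.65 for the sparse Pmaip1.

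The second comparison asked whether the members changed with age within a class. The mean of the old and very old mice was compared with the young mice in a fit of all 8 mice on age group and sex (edgeR quasi-likelihood test, adjusted over all genes of the class). None of the 89 judged pairs passed an adjusted p of 0.05, with a smallest value of 0.13. At an unadjusted p under 0.05 there were 10 pairs, all lower in older mice, and 3 without the young male. Over all genes and classes, 4.65% of pairs were lower and 5.1% higher at that unadjusted p. DESeq2 also called 0 pairs and had 2 at an unadjusted p under 0.05. Over all genes and classes, 1.02% of pairs were called higher and 0.647% lower, and most of these calls were in HSC-like cells, with 899 higher and 633 lower of 11205 genes.

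In HSC-like cells none of the 8 judged members passed the test between older and young mice. In this comparison values are CPM with TMM scaling within the class. Trp53 was at 148 and 169 in the young male and female, 169 and 154 in the middle-aged, 148 and 137 in the old, and 160 and 166 in the very old mice. The older and young mice overlapped, and the difference was -0.06 on the log2 scale (95% interval -0.27 to 0.15). Mdm2 was at 36.6 and 32.5 in the young male and female and from 31.4 to 40.6 in the 4 older mice, a difference of -0.01 (-0.32 to 0.30). Bax was at 72.5 and 73.5 in the young and from 71.8 to 85.1 in the older mice, a difference of 0.14 (-0.08 to 0.36). The 95% intervals of Trp53, Mdm2, Mdm4, Ccng1, Bax and Bbc3 all lay between -0.39 and 0.40.

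Aen had the lowest estimate in HSC-like cells. It was at 34.3 and 36.4 in the young male and female, 44.8 and 39.3 in the middle-aged, 19.7 and 31.7 in the old, and 33.3 and 24.3 in the very old mice. All 4 older mice were below both young mice and the middle-aged mice were above them. In HSC-like cells 1885 of 11205 genes had all 4 older mice below both young mice and 1833 had them all above. For Aen the difference was -0.38 (95% interval -0.78 to 0.02, adjusted p from edgeR 0.21). Without the old female it was -0.61 with an adjusted p of 0.041. Sesn2 in HSC-like cells had an interval from -0.73 to 0.73 and so could show only large changes.

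Taking all classes, 62 of the 89 estimates were below 0 and the median was -0.07. The median over all genes of a class lay between -0.03 and 0.005. The classes come from the same 8 mice and are not independent. The count rested partly on 1 mouse: without the young male, 46 of 89 estimates were below 0 and the median was -0.01. With total UMIs as the only scaling, 70 were below 0 and the median was -0.12, but this scaling moves all genes of a class alike, by -0.13 in HSC-like cells and by less in the other classes. In 17 pairs all 4 older mice lay below both young mice and in 4 pairs all lay above them, where 7.62% and 7.66% of all gene and class pairs did so. Aen was below 0 in 10 of 10 classes, Mdm2 in 9 of 10, Ccng1 in 8 of 10, Phlda3 in 7 of 8 and Bax in 8 of 11. Trp53 went the other way with 8 of 11 estimates above 0, none of them past the test. The old and the very old mice, each set against the young, did not always agree. Bax was below 0 in 10 of 11 classes in old but in 2 of 11 in very old mice, and Mdm2 in 4 of 10 and 10 of 10. Aen was below 0 in 9 of 10 and 10 of 10 classes, Ccng1 in 6 of 10 at both ages and Phlda3 in 6 of 8 at both. Trp53 was above 0 in 6 of 11 and 10 of 11.

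**Figure D4:**
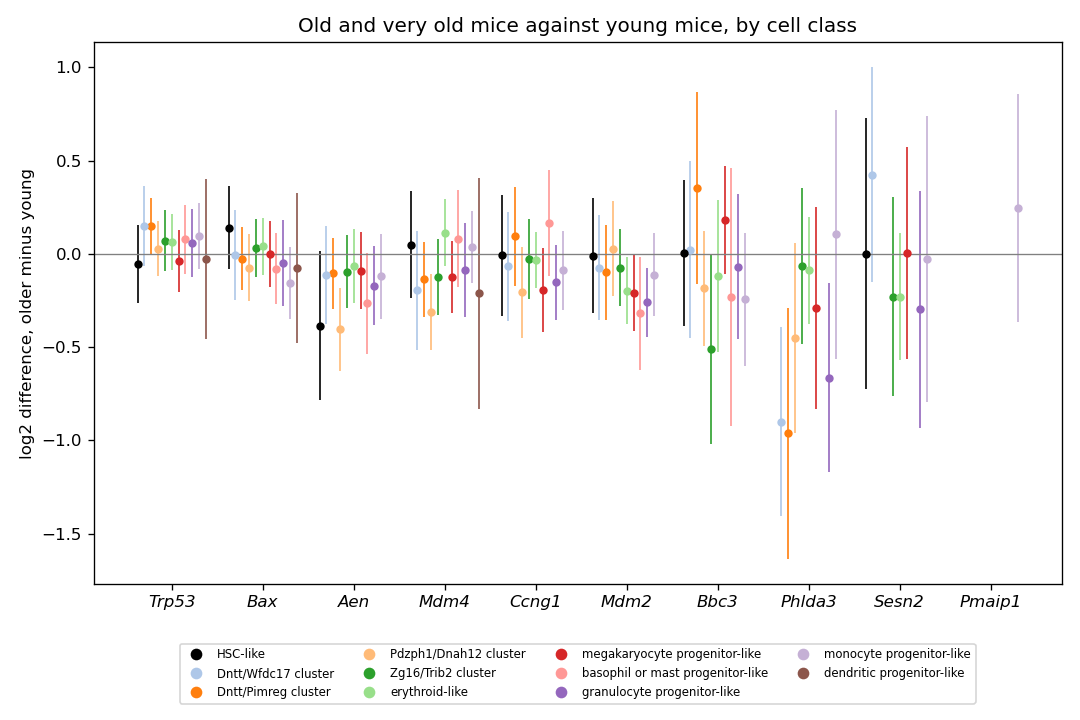
Difference between older (old and very old) and young mice on the log2 scale (y axis), with 95% intervals from edgeR, for each judged p53 pathway gene and cell class (colours, HSC-like in black). No pair passed an adjusted p of 0.05, and 62 of 89 points lie below 0.

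The largest falls among the unadjusted results were in Phlda3. In the Dntt/Wfdc17 cluster it was at 11.4 and 11 in the young male and female, 8.24 and 8.26 in the middle-aged, 4.62 and 6.50 in the old, and 8.60 and 4.55 in the very old mice. All older mice were below both young mice, as was so for 880 of 11837 genes of this cluster. For Phlda3 the difference was -0.90 (95% interval -1.40 to -0.39, adjusted p from edgeR 0.14). Of 18 alternatives the pair passed the threshold in 3, without the filter on low counts, at the lower clustering resolution of 0.4 and without the very old male. In the others the adjusted p ran up to 0.72 (without the young male), with 0.63 by DESeq2. In the Dntt/Pimreg cluster Phlda3 differed by -0.96 (adjusted p 0.34) and in granulocyte progenitor-like cells by -0.66 (adjusted p 0.83). In the Pdzph1/Dnah12 cluster Aen was at 61.7 and 53.5 in the young and from 39.7 to 46.1 in the older mice, a difference of -0.40 (95% interval -0.63 to -0.18, adjusted p 0.13).

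No Mdm2 pair passed the adjusted test at any age. In granulocyte progenitor-like cells it was at 28.4 and 26.2 in the young male and female, 21.2 and 21.1 in the middle-aged, 25.5 and 25.7 in the old, and 20.1 and 20.5 in the very old mice. In megakaryocyte progenitor-like cells it was at 33.4 and 34.7 in the young, 31.0 and 34.4 in the middle-aged, 32.4 and 32.3 in the old, and 27.0 and 26.6 in the very old mice. The middle-aged mice were about as low as the very old mice in the first class but not in the second, and the old mice of both stood closer to the young than to the very old mice. For very old against young mice, the Mdm2 estimate was below 0 in 10 of 10 judged classes, from -0.46 to -0.09, and 6 of them had an unadjusted p under 0.05 (smallest adjusted p from edgeR 0.15). Over all genes and classes, 6.52% of pairs were lower in very old mice at that unadjusted p. Over all members, 12 of the 89 judged pairs reached it in either direction, 11 of them lower, as did 13.6% of all pairs. The very old mice were not tested against the middle-aged or old mice. The 2 very old libraries also had the lowest summed level of the immediate-early and dissociation genes, at 117 to 119 CPM against 152 to 264 in granulocyte progenitor-like and 98.6 to 114 against 172 to 371 in megakaryocyte progenitor-like cells. Its part in the Mdm2 values was not tested.

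For middle-aged against young mice, the Bbc3 estimate was below 0 in 10 of 10 judged classes, from -0.74 to -0.13, with 5 at an unadjusted p under 0.05 and none past the adjusted test (smallest adjusted p from edgeR 0.09). Over all genes and classes, 5.88% of pairs were lower at that unadjusted p. Over all members, 15 of the 89 judged pairs reached it in either direction, 9 of them lower and the others higher, as did 12.3% of all pairs. In HSC-like cells Bbc3 was at 9.90 and 15.2 in the middle-aged male and female and 22.0 and 19.2 in the young. It was at 17.9 to 23.6 in the old and very old mice. The middle-aged mice were the lowest 2 of the 8 in this class, a split that was not counted over all genes. In whole libraries the lowest Bbc3 values were those of the very old mice, 6.84 and 7.09, with 7.12 and 7.31 in the middle-aged. The middle-aged mice were not tested against the old or very old mice.

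Against single ages, 2 pairs passed the test. For middle-aged against young mice, 1 of 89 pairs was called, against 0.719% of all pairs higher and 0.46% lower. This was Aen in the Dntt/Pimreg cluster, where 279 of 11310 genes were called higher and 161 lower. It was at 63.0 and 60.0 in the middle-aged male and female, 42.3 and 44.8 in the young and from 38.2 to 42.1 in the old and very old mice. The middle-aged mice did not overlap any other age, a split that was not counted over all genes. The difference was 0.50 ± 0.10 (SE, adjusted p from edgeR 0.011). It did not pass in 4 of 18 alternatives, among them DESeq2 (adjusted p 0.075), cells thinned to 5000 UMIs (0.091), without the young male (0.25) and without the middle-aged male (0.12).

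For very old against young mice, 1 of 89 pairs was called, against 1.15% of all pairs higher and 0.718% lower. This was Mdm4 in the Pdzph1/Dnah12 cluster, where 41 of 10326 genes were called higher and 32 lower. It was at 44.8 and 43.9 in the very old male and female, 66.4 and 60.1 in the young, 61.6 and 59.5 in the middle-aged and 57.4 and 59.5 in the old mice. The 2 very old mice stood below the other 6, a split that was not counted over all genes. The difference was -0.51 ± 0.12 (SE, adjusted p from edgeR 0.044). It did not pass in 12 of 17 alternatives, with a largest adjusted p of 0.75 (DESeq2), while the estimate stayed between -0.60 and -0.42. Jun, an immediate-early gene that cell dissociation induces, also stood apart in the 2 very old libraries of this cluster, at 18.9 and 34.4 CPM against 111 to 226 in the other 6. The part of the library series in these results cannot be told apart from age. For old against young mice no pair passed (7 of 89 at an unadjusted p under 0.05, with 8.69% of all pairs, and 0.79% of all pairs higher and 0.491% lower).

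**Figure D5:**
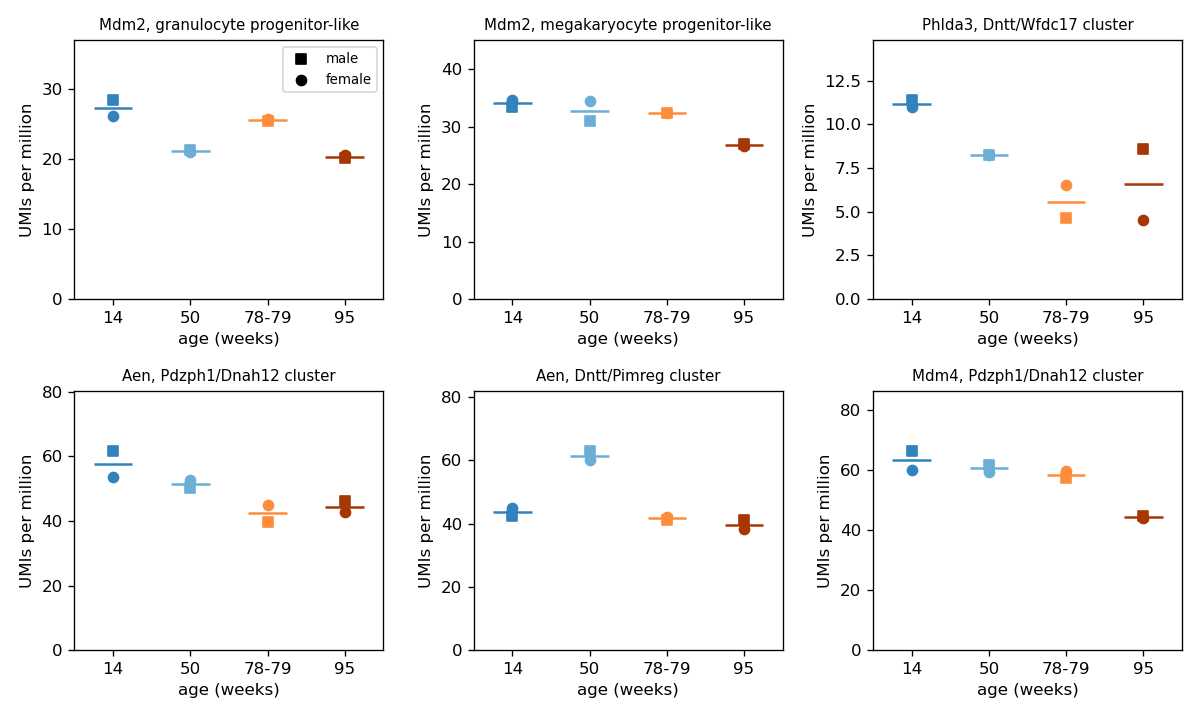
CPM with TMM scaling within the class (y axis, from 0) by age in weeks (x axis) for 6 pairs of p53 pathway gene and cell class. Squares are males, circles females and bars the mean of 2 mice, and the middle-aged mice stand highest for Aen in the Dntt/Pimreg cluster at 63.0 and 60.0.

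The third comparison asked whether HSC-like cells changed with age differently from the other classes. The change from young to older mice in HSC-like cells was set against the mean change in the other 10 classes, with the mouse as a block (edgeR quasi-likelihood test). None of the 8 judged members differed at an adjusted p of 0.05, none had an unadjusted p under 0.05, and 6.08% of all genes were called. The differences ran from -0.19 (Sesn2, 95% interval -0.89 to 0.52) to 0.18 (Bax, -0.07 to 0.44). No other tool was run on this comparison.

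Cell-to-cell variability of the members in HSC-like cells was compared between ages with a mean-adjusted variance, the log2 of a gene's variance over the trend of variance on mean. Cells were thinned to 4500 UMIs, which left 253 to 633 cells per mouse. Of the members, 6 had a UMI in at least 10% of these cells and were tested: Trp53, Mdm2, Mdm4, Ccng1, Bax and Aen. Bbc3 was detected in 7.91%, Sesn2 in 2.67%, Phlda3 in 1.89% and Pmaip1 in 0.0620% of cells. The differences between older and young mice ran from -0.05 (Mdm2) to 0.01 (Bax) with SE of 0.04 to 0.05. None passed an adjusted p of 0.05 by limma, none had an unadjusted p under 0.05, and 0.532% of all 5071 genes were called.

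Female and male mice were compared in the same fit as the ages. No judged pair passed an adjusted p of 0.05 (edgeR, smallest 0.19), with 0.281% of all pairs called higher and 0.19% lower in females. At an unadjusted p under 0.05 there were 3 pairs, all lower in females (4.47% of all pairs were lower): Bax and Pmaip1 in monocyte progenitor-like cells (-0.21 and -0.50) and Trp53 in the Pdzph1/Dnah12 cluster (-0.13). DESeq2 called 0 pairs and had 1 at an unadjusted p under 0.05.

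Other genes, p53 targets and regulators among them, were read from 5 lists of 75 genes that held none of the members. Over all 5 lists, 11 of 618 tested pairs of gene and class (1.78%) were called between older and young mice by edgeR. The immediate-early and dissociation genes, which are not a p53 list, gave 105 of these pairs, with 1 called higher and 2 lower. In HSC-like cells 9 of 58 list genes (15.5%) and 13.7% of all genes were called, so the list genes changed about as often as other genes. Beside the HSC-like background of 899 higher and 633 lower of 11205 genes, HSC-like cells had 3 of 16 tested arrest and repair targets higher and 2 lower, 1 of 12 apoptosis and survival targets higher, 1 of 14 upstream kinases and regulators lower, 1 of 8 BCL2 family genes lower and 1 of 8 immediate-early genes higher. The median in HSC-like cells was 0.15 over the arrest and repair list, -0.01 over the apoptosis and survival list, -0.08 over the upstream list, -0.10 over the BCL2 family, 0.46 over the immediate-early list and -0.03 over all genes. The minimum of 20 UMIs used to judge the members was not applied to the list genes, and Ephx1, Perp and Bok in HSC-like cells fell below it. Plk2 and Ak1 met it there with medians of 28.5 and 35. Their young mice were below 20, with 3 to 6 and 15 to 16 raw UMIs, so both met it only through the mice where they were higher. Of the 11, Plk2, Junb and Jun in the Pdzph1/Dnah12 cluster were also called by DESeq2, which gave no adjusted p for Bok.

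Plk2, a kinase that p53 induces, rose most. It had 3 and 6 raw UMIs in HSC-like cells of the young female and male, 31 and 24 in the middle-aged, 47 and 116 in the old and 26 and 80 in the very old female and male. As CPM of the class these were 1.10 and 2.45 in the young and 9.24 to 21.1 in the older mice. They did not overlap, as was so for 1833 of 11205 HSC-like genes with all older mice above both young mice. The rise was 3.22 (95% interval 2.34 to 4.10, adjusted p from edgeR 9.0e-05, from DESeq2 1.8e-05), and it was called with each of the 8 mice left out in turn and without the very old mice. Without the Harmony correction used to form the classes it was 0.82 and not called (adjusted p from edgeR 0.66). Ak1, an adenylate kinase, rose by 1.26 and was not called without the young male or by DESeq2 (adjusted p 0.051). Ephx1, an epoxide hydrolase, had 3 and 4 raw UMIs in the young and 11 to 40 in the older mice (median 13), too sparse to judge by the rule for members. Its estimate was 2.19, not called without the young male or by DESeq2 (adjusted p 0.059). Perp, a membrane protein of the apoptosis list, was as sparse, with 4 raw UMIs in each young mouse and 5 to 33 in the older mice (median 14). Its estimate was 1.59, not called when any of 7 mice was left out in turn, all but the very old female.

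The genes called lower in HSC-like cells were Bok, a BCL2 family member (-2.05, too sparse to judge by the rule for members, with 11 and 15 raw UMIs in the young and 2 to 7 in the older mice), the checkpoint kinase Chek1 (-1.28), the antiproliferative gene Btg2 (-0.80) and the repair gene Xpc (-0.45). None of these 4 was called without the young male or without the old male. Without the young male the estimate of Btg2 was -0.40 and that of Xpc -0.13. Btg2 was not called without the very old mice (-0.23, adjusted p from edgeR 0.63), and the sign of Xpc turned without Harmony. Of the 9 calls in HSC-like cells, 8 were not past the threshold without Harmony and Bok was not tested there. The immediate-early gene Junb rose by 0.73 and was not called without the young male. It was at 55.5 and 50.4 CPM of the class in the young male and female, 126 and 88.1 in the old and 56.9 and 65.0 in the very old mice. Without the very old mice the difference was 1.11 (adjusted p from edgeR 5.2e-06). The summed level of the 12 immediate-early and dissociation genes in HSC-like cells was 219 to 281 CPM in the young, 434 to 724 in the old and 218 to 221 in the very old mice. The part of dissociation in the results for Btg2 and Plk2 was not tested. Jun fell by -0.76 in the Pdzph1/Dnah12 cluster and by -0.81 in megakaryocyte progenitor-like cells, and without the very old mice its estimates were 0.63 (adjusted p from edgeR 6.9e-05) and 0.47 (adjusted p 0.44, not called).

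Cdkn1a, the p53 target that encodes the cell cycle inhibitor p21, had few raw UMIs in HSC-like cells, 9 and 5 in the 2 young mice and 12 to 24 in the older mice. Its difference was 0.88 ± 0.47 (SE, adjusted p from edgeR 0.25), and in megakaryocyte progenitor-like cells it was 0.96 ± 0.25 (adjusted p 0.059), so neither passed the test.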

How the data were processed

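The authors prepared 10x Chromium 3′ libraries, sequenced them and counted UMIs with Cell Ranger on mm10. The matrix header names version 6.0.0 and the study's methods name another. The deposited values are raw UMI counts per gene and cell. Members and lists were chosen with earlier results of these data known, and each member was named. List genes were named where called.

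Barcodes with 200 or more genes were clustered (2000 variable genes without members and list genes, 30 principal components, an own implementation of Harmony over libraries, Leiden at resolution 0.8). Clusters were named from marker lists. Clusters of low depth were left unnamed by a rule set after seeing them, and 12124 cells (median 1979 UMIs) entered no class. No doublet caller was run. UMIs were summed per mouse and class. The tests were edgeR 4.0.16 quasi-likelihood fits with TMM and filterByExpr, limma 3.58.1 for variance and DESeq2 1.42.0 as an alternative, in R 4.3.3, with Benjamini-Hochberg adjustment over all genes. Of these, only the edgeR test of older against young mice and the limma variance test, both in HSC-like cells, were also run on simulated data. Clustering used Python 3.11.15 and leidenalg 0.10.2. Each group has 2 mice, so p-values rest on few animals.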

Additional observations from a re-analysis of the deposited data

Results flagged for a closer look

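In 4 of 89 judged groups of 8 mice, 1 mouse stood apart from the others by Dixon's criterion, which chance alone meets in about 1 in 20 groups. Values are CPM scaled over all mouse and class sums. Bax was highest in the middle-aged male in both granulocyte progenitor-like cells (185, with the next mouse at 152) and monocyte progenitor-like cells (245, with the next mouse at 199). Aen was lowest in the very old female in the Zg16/Trib2 cluster (61.1, with the next mouse at 72.5). Sesn2 was highest in the old male in the Dntt/Wfdc17 cluster (7.19, with the next mouse at 4.49).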

How the results depend on the processing

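Between older and young mice, the count of member and class pairs called lower was 0, and it was 3 without the filter on low counts (Phlda3 in both Dntt clusters and Aen in the Pdzph1/Dnah12 cluster), 1 at resolution 0.4 (Phlda3 in the Dntt/Wfdc17 cluster) and 0 to 1 with each mouse left out. It was 1 without the old female (Aen in HSC-like cells) and 1 without the very old male (Phlda3 in the Dntt/Wfdc17 cluster). The cause was not tested. Directions turned for Bbc3 in the Zg16/Trib2 cluster without the young male (0.0023, against -0.97 without the young female) and for Jun without the very old mice (0.63 in the Pdzph1/Dnah12 cluster, 0.47 in megakaryocyte progenitor-like cells). Against the other classes they turned with total UMIs as the only scaling for Trp53 in basophil or mast progenitor-like cells (0.017), Mdm4 in megakaryocyte progenitor-like cells (0.067) and HSC-like cells (0.065), and Ccng1 in HSC-like cells (0.012). With cells thinned to 5000 UMIs they turned for Trp53 in basophil or mast progenitor-like cells (0.0091) and, in HSC-like cells, for Mdm4 (0.0069) and Ccng1 (0.0057). DESeq2 gave 0.026 for Mdm4 in HSC-like cells. Without Harmony, Xpc in HSC-like cells was 0.35, and in megakaryocyte progenitor-like cells Mdm4 was 0.10 and Phlda3 0.10. At resolution 0.4 no class was HSC-like. The class comparisons were blocked by mouse, and sex, which matches 1 male and 1 female at each age, was a term of the age fit. Mice of different ages were matched by sex only, since the labels give no other link between them. Pmaip1 had too few UMIs to judge in every class but monocyte progenitor-like cells, and Phlda3 in HSC-like cells, which does not show that they were absent. The part of depth in this was not tested.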
